A study of Mus musculus with 6 samples.

Results

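The cytosolic ribosomal protein genes encode the protein parts of the ribosome that works in the cytoplasm. They were taken as all protein-coding genes whose name is Rpl or Rps followed by a digit, or *Rplp0*, *Rplp1*, *Rplp2* or *Rpsa*, with a mean above 10 over the 6 libraries. S6 kinase genes, genes of an Rps19 binding protein and processed copies named "-ps" were left out. This gave 83 of the 26437 genes in the table, 50 of the large (60S) subunit and 33 of the small (40S) subunit. The name alone was met by 85 genes. Below the threshold were *Rpl39l* with a mean of 1.07 and *Rpl10l* with a mean of 0.355. The lowest above it were *Rpl6l* with 46.7, *Rps27rt* with 172 and *Rpl24* with 300.4. All 83 passed the limit of a mean above 0.5 that was set for the statistical test.

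RNA-seq was carried out on mouse embryos at embryonic day 10 to compare wild-type (WT) tissue with tissue from embryos lacking *Rdh10*, the retinol dehydrogenase that begins retinoic acid synthesis. The tissue was the front of the head, which holds both optic vesicles together with facial tissue and some forebrain, so that the libraries labelled eye are mixed in cell type. Each group had 3 libraries, each made from a pool of 3 embryos, so that 9 WT and 9 *Rdh10*-/- (*Rdh10* KO) embryos from matings of heterozygous parents were compared. The libraries were made from poly(A)-selected RNA with a strand-specific kit. Reads on genes numbered 19089872, 17626842 and 20808237 in WT replicates 1 to 3 and 27101025, 18511484 and 16392777 in *Rdh10* KO replicates 1 to 3. Values below are normalized counts, meaning reads on a gene divided by 1 size factor per library, unless a level per length is named.

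*Rdh10* itself had 399, 342 and 381 normalized counts in WT replicates 1 to 3 and 183, 142 and 181 in *Rdh10* KO. All 3 *Rdh10* KO libraries lay below all 3 WT libraries, and the log2 fold change was -1.16 ± 0.13 (SE; limma with an intensity trend, adjusted p = 7.3e-05). Of the 7 optic vesicle and retina markers, the summed value was 4657, 4624 and 4779 in WT and 3089, 4809 and 4801 in *Rdh10* KO, with *Lhx2* the most abundant in WT and none at 0. The 6 heart markers, for tissue outside the dissected region, summed to 97.2, 61.2 and 71.5 in WT and 74.5, 75.7 and 83.5 in *Rdh10* KO, with *Myh7* the most abundant and *Nppa* at 0 in 3 of the 6 libraries.

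A ribosome joins a small subunit, which reads the mRNA, to a large subunit, which forms peptide bonds. Each subunit holds ribosomal RNA and a fixed set of proteins, mostly in a single copy, and most of these proteins are small and very abundant in growing embryonic tissue. Their mRNAs typically begin with a C followed by a run of pyrimidines, the 5′ terminal oligopyrimidine (TOP) tract, through which mTORC1 and the RNA-binding protein LARP1 control their translation.

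Promoter sequences from RefSeq (GRCm38.p6) were found by symbol for 62 of the 83 genes, each covering 250 bases before to 50 bases after an annotated start. Shown are the 45 bases before and the first 25 bases after the start of 8 genes, 5 from the end of the family with the lowest fold changes and 3 from the other end or among the most abundant, to let the start regions of genes that differ in fold change be read side by side. Capitals mark the longest unbroken run of C and T in the window, or the first of them where runs tie, as in *Rps27l*.
*Rpl34*, chr3:130730313-130730382, minus strand: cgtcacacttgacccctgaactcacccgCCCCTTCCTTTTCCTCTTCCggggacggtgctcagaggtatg
*Rpl27*, chr11:101442200-101442269, plus strand: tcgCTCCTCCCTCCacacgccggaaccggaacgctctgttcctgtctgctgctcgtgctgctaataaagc
*Rpl35a*, chr16:33056437-33056506, plus strand: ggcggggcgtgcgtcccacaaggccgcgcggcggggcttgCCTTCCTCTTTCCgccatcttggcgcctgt
*Rpl26*, chr11:68901521-68901590, plus strand: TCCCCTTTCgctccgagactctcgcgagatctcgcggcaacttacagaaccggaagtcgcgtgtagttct
*Rps27l*, chr9:66946041-66946110, plus strand: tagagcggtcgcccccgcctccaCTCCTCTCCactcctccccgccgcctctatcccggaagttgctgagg
*Rpl28*, chr7:4792920-4792989, plus strand: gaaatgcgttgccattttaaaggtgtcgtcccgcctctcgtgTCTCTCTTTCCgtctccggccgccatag
*Rplp0*, chr5:115559422-115559491, plus strand: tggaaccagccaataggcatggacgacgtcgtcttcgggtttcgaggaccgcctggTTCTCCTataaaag
*Rpl4*, chr9:64173342-64173411, plus strand: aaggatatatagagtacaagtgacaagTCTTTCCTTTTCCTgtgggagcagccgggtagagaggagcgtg

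A run of C and T of at least 8 bases, in the direction of the gene, lay in this 70 base window in 38 of the 62 ribosomal protein genes (61.3%), against 30.6% of the 27025 genes in the promoter table. It was present in 8 of the 10 genes with a promoter entry that fell in *Rdh10* KO. The run was 20 bases long in *Rpl34*, the gene with the lowest fold change, and 14 bases long in *Rpl4*, which stood near the other end. Most of the window lies before the annotated start, so a run in it need not be in the mRNA or be a TOP tract. That of *Rpl26* lies wholly before the start, and *Rpl34*, *Rps27l* and *Rpl35a* have 2, 2 and 3 annotated starts. The letters CCGGAAG, the core of sites for ETS factors, were found on either strand of the 300 base sequence in 25 of the 62 genes (40.3%) and in 9.93% of the 27025 genes of the table, or 8.86% of its 32851 sequences. The letters AAGATGG, a core of sites for YY1, were found in 10 of the 62 (16.1%) and in 7.28% of all genes, or 6.34% of all sequences. These letter strings can share an end, which occurred in 0 of the 62 genes. The matches describe the sequence only.

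Ribosomal protein mRNAs made up a large share of all reads. The large subunit genes took 3.31%, 3.40% and 3.33% of the reads in WT and 3.12%, 3.14% and 3.36% in *Rdh10* KO. The small subunit genes took 2.53%, 2.62% and 2.58% in WT and 2.34%, 2.34% and 2.47% in *Rdh10* KO. For the small subunit all 3 *Rdh10* KO libraries lay below all 3 WT libraries, while for the large subunit replicate 3 of *Rdh10* KO lay among the WT libraries. The mean share of both subunits together was 5.92% ± 0.10 (SD, n = 3) in WT and 5.59% ± 0.21 (SD, n = 3) in *Rdh10* KO. In tissue of several cell types, fewer cells rich in ribosomal protein mRNA and less of that mRNA per cell cannot be told apart.

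Per length, as RPKM (reads on genes scaled to library size and mRNA length), the median level in WT was 611 over 49 large subunit genes and 802 over the 33 small subunit genes. *Rplp1*, an acidic protein of the stalk, had the highest level among large subunit genes at 2641 ± 175 (SD, n = 3) in WT, and *Rps14*, a protein of the 40S platform, had the highest among small subunit genes at 2029 ± 50. At the low end were *Rpl24* at 23.6 ± 3.2, *Rps27rt* at 24.4 ± 3.2 and *Rpl36al* at 92.5 ± 3.9. *Rpl24* overlaps another annotated gene on its own strand, and *Rps27rt* and *Rpl6l* are near copies of *Rps27* and *Rpl6*, so that reads may be split between them and their values are uncertain. *Rpl6l* has no annotated coding transcript in GENCODE and was left out of the levels per length and of the comparisons with mRNA length.

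In *Rdh10* KO, 14 of the 83 genes (16.9%) fell and 0 rose at an adjusted p under 0.05, where 9.12% of the 22921 genes tested fell and 10.3% rose. Among the 4820 genes with a mean above 1000, a level that 80 of the 83 reach, 22.8% fell and 19.0% rose, so that the share of ribosomal protein genes that fell was above that of all genes and below that of abundant genes. In limma 0 rose also at an unadjusted p under 0.05, where 27 fell. At that threshold 3421 of all 22921 genes and 1511 of the 4820 with a mean above 1000 fell. At an adjusted p under 0.05 DESeq2 and both tests of edgeR (likelihood ratio and quasi-likelihood) gave 0 risen as well. The number fallen was 19 in DESeq2, 7 and 14 in these edgeR tests and 1 in limma without the intensity trend. Of all 22921 genes 2242, 2240, 2190 and 197 fell in these fits. No gene passed a log2 cut-off of 0.85, the largest decrease being to 70.9% of the WT mean.

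The decreases were small and ran through both subunits. Of the large subunit genes, 10 of 50 fell, 38 lay below 0 and the median log2 fold change was -0.10. Of the small subunit genes, 4 of 33 fell, 33 lay below 0 and the median was -0.11. The small subunit count was 0 without any 1 of the WT replicates, where 484, 427 and 810 of all genes fell. It was 10 with median scaling, where 2557 of all genes fell. Under the other scalings both medians stayed below 0, with 31 to 42 of the 50 and 28 to 33 of the 33 genes below 0. The median over all genes tested was 0.00, and over those with a mean above 1000 it was -0.04, with 54.9% of them below 0. Groups did not overlap, with *Rdh10* KO below WT, for 34 of the 83 genes (18 large, 16 small), where this held for 17% of all genes tested and for 34.0% of those with a mean above 1000. The reverse held for 1 gene, the low *Rpl6l*, against 17.6% of all genes and 1259 of the 4820 with a mean above 1000.

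**Figure D1:**
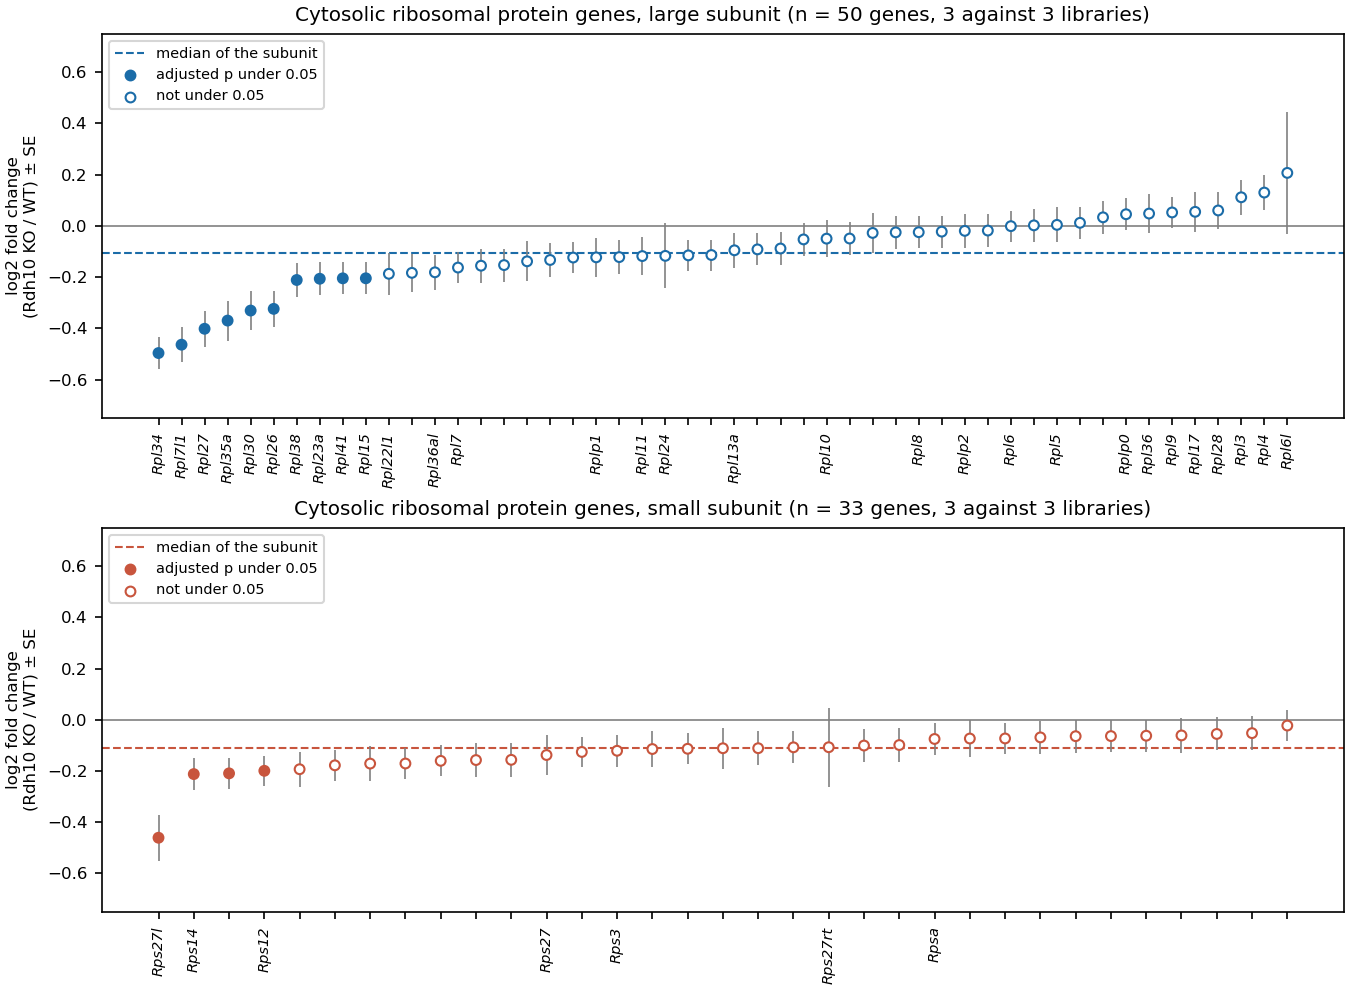
Log2 fold change of *Rdh10* KO over WT with its SE (limma, 3 against 3 libraries) for each of the 50 large subunit genes (upper panel) and the 33 small subunit genes (lower panel), ordered by value. Names are given for genes described in the text, filled points have an adjusted p under 0.05, and the dashed lines at -0.10 and -0.11 are the medians. The small subunit genes all lie below 0 at this scaling (28 to 33 of 33 at other scalings), and 12 large subunit genes lie above it.

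The medians of the subunits lay close together while their ranges differed. Fold changes of the large subunit genes ran from -0.50 to 0.21 and those of the small subunit genes from -0.46 to -0.02, and the medians differed by 0.01. Library by library, the median deviation of the large subunit genes from their WT mean, on the log2 scale, was -0.03, 0.03 and -0.01 in WT and -0.11, -0.08 and -0.04 in *Rdh10* KO. For the small subunit genes it was -0.04, 0.03 and 0.00 in WT and -0.16, -0.14 and -0.08 in *Rdh10* KO. Each *Rdh10* KO library lay below each WT library for both subunits, by the narrowest margin in replicate 3, and in each *Rdh10* KO library the small subunit median was below the large subunit median, by 0.05, 0.06 and 0.04. The difference between the subunits was not tested.

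**Figure D2:**
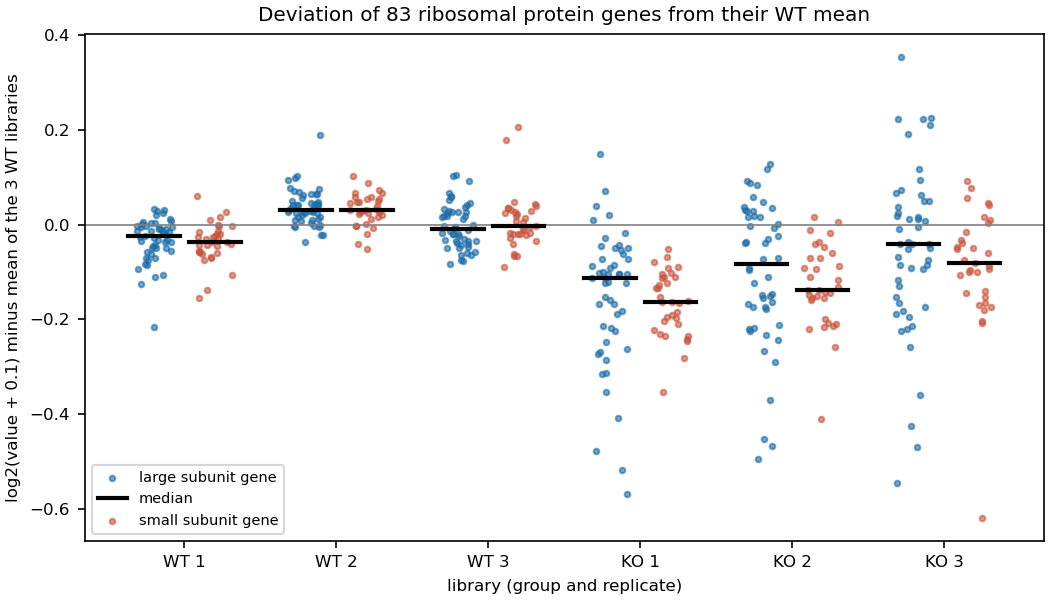
Deviation of each gene's log2(value + 0.1) from its mean over the 3 WT libraries, by library, with 50 large subunit genes and 33 small subunit genes and a bar at each median. In *Rdh10* KO replicate 1 the medians are -0.11 and -0.16, and in replicate 3 they are -0.04 and -0.08 with the large subunit genes widely spread.

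The number of genes that fell was smaller with any library left out. Without WT replicate 1, 2 or 3, 3, 3 and 4 genes fell, and without *Rdh10* KO replicate 1, 2 or 3, 7, 5 and 11 fell. Over all genes tested, 2091 fell with all 6 libraries, 484, 427 and 810 without WT replicate 1, 2 or 3, and 1895, 1314 and 1188 without *Rdh10* KO replicate 1, 2 or 3, so that calls were lost across all genes in these smaller fits. The *Rdh10* KO libraries also differed from each other in other ways. The 10 markers of embryonic red blood cells summed to 127297, 101062 and 135899 in WT and to 51232, 120478 and 157219 in *Rdh10* KO, the lowest value being in replicate 1, where the embryonic globin *Hbb-y* had 18673 normalized counts against 41224 and 59008 in replicates 2 and 3. None of these 10 markers was at 0, and none passed the test. Replicate 1 of *Rdh10* KO also had the most reads and the lowest ribosomal protein medians. Mitochondrially encoded RNAs took 1.64%, 1.69% and 1.90% of reads in WT and 1.45%, 1.49% and 0.949% in *Rdh10* KO. With *Rdh10* KO replicate 1 left out the medians were -0.08 for the large and -0.09 for the small subunit. The part of red blood cell content in these values was not tested.

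*Rpl34*, a protein of the 60S subunit, had the lowest fold change of the family. Its values were 10212, 10737 and 10605 in WT and 7094, 7688 and 7593 in *Rdh10* KO. The 3 *Rdh10* KO libraries lay close together and well below WT, with a log2 fold change of -0.50 ± 0.06 (limma, adjusted p = 1.4e-04). The gene lies at chr3:130726831-130730398 (GRCm38) and overlaps no other annotated gene.

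*Rpl7l1* is a paralog of *Rpl7* that takes part in making the large subunit and is not a standard part of the mature ribosome. Its values were 5273, 5571 and 5381 in WT and 4235, 3837 and 3707 in *Rdh10* KO, with no overlap (log2 fold change -0.46 ± 0.07, limma, adjusted p = 4.1e-04). *Rpl27* had 4689, 5145 and 4593 in WT and 3863, 3477 and 3578 in *Rdh10* KO. Its groups were apart as well, at -0.40 ± 0.07 (limma, adjusted p = 0.0014). *Rpl34*, *Rpl7l1* and *Rpl27* were the 3 genes of the family whose call was kept with each library left out in turn.

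*Rpl35a* and *Rpl26* are both among the genes mutated in Diamond-Blackfan anemia, in which red cell production fails, and RPL26 sits at the rim of the tunnel through which the new protein leaves. *Rpl35a* had 4927, 5108 and 4629 in WT and 3413, 4156 and 3806 in *Rdh10* KO. *Rpl26* had 11594, 12404 and 12325 in WT and 9127, 9368 and 10569 in *Rdh10* KO. In both genes all *Rdh10* KO libraries were below WT, with replicate 1 the lowest, at -0.37 ± 0.08 and -0.32 ± 0.07 (limma, adjusted p = 0.0045 and 0.0052). *Rpl30*, a large subunit protein at the interface between subunits, had 5972, 6315 and 6757 in WT and 4554, 5185 and 5426 in *Rdh10* KO. It too was lower in each *Rdh10* KO library (log2 fold change -0.33 ± 0.08, limma, adjusted p = 0.0081). The call was lost for *Rpl35a* without WT replicate 1 or 2 or *Rdh10* KO replicate 3, and for *Rpl26* and *Rpl30* without any of the WT replicates or *Rdh10* KO replicate 2, with adjusted p up to 0.0931, 0.0902 and 0.102.

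In the small subunit *Rps27l* had the lowest fold change. It encodes a near twin of RPS27, and its transcription is known to respond to p53. Its values were 4147, 4437 and 5160 in WT and 3573, 3433 and 2972 in *Rdh10* KO, a log2 fold change of -0.46 ± 0.09 (limma, adjusted p = 0.0027). The WT libraries ranged more widely than those of *Rps14*, and the groups did not overlap. The call was lost without any of the WT replicates or *Rdh10* KO replicate 3 (adjusted p up to 0.0739). *Rps27*, its standard counterpart, had a log2 fold change of -0.14 ± 0.08 (limma, adjusted p = 0.251).

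*Rps14*, at the platform where the mRNA leaves the small subunit, had 30222, 31659 and 31647 in WT and 26279, 26859 and 27611 in *Rdh10* KO. Its *Rdh10* KO mean was 86.3% of the WT mean and the groups did not overlap (log2 fold change -0.21 ± 0.06, limma, adjusted p = 0.0264). The call was kept only with *Rdh10* KO replicate 3 left out. Other genes that fell, *Rpl38*, *Rpl23a*, *Rpl41*, *Rpl15* and *Rps12*, were named after their values were seen. They had 86.4% to 87.1% of the WT mean, log2 fold changes from -0.21 to -0.20 and adjusted p (limma) from 0.0300 to 0.0383, and each lost its call in 5 or 6 of the 6 fits that left out a library. In all of them the groups did not overlap, and *Rps12* had 17743, 17722 and 17673 in *Rdh10* KO against 20001, 20808 and 20200 in WT.

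**Figure D3:**
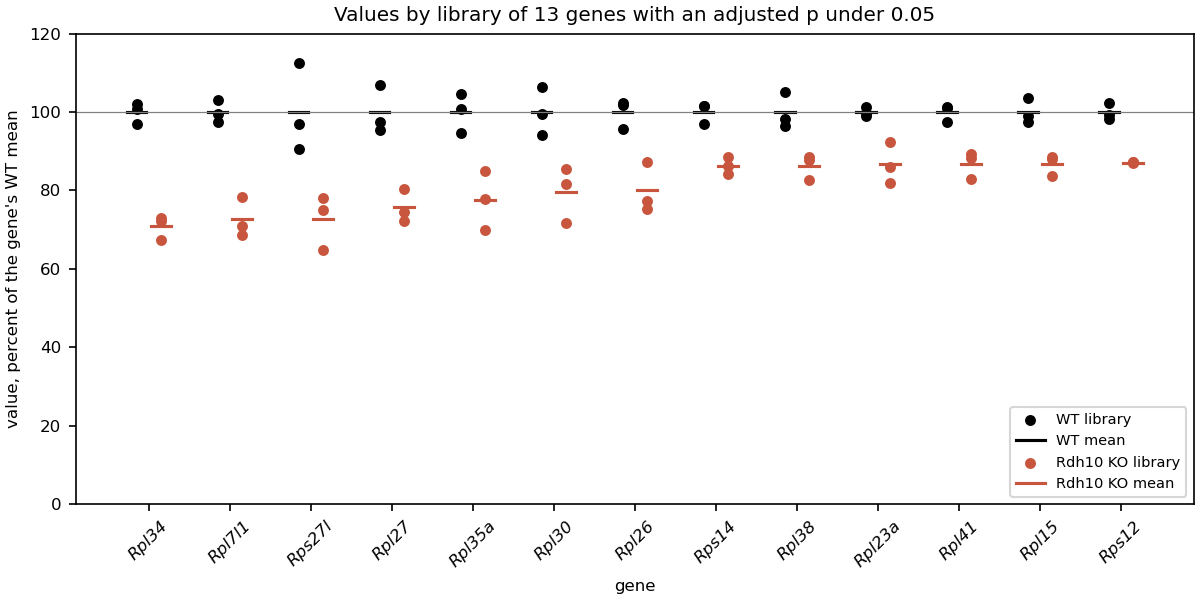
Normalized counts of 13 of the 14 genes that fell, as a percentage of the gene's WT mean, with 1 point for each library and a bar at each group mean. The *Rdh10* KO means run from 70.9% (*Rpl34*) to 87.1% (*Rps12*), and in these 13 genes the *Rdh10* KO points lie below the WT points.

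Of the 14 genes, 6 overlap an annotated gene on the opposite strand, among them *Rps14* (*Ndst1*), *Rpl23a* (*Tlcd1*) and *Rpl15* (*Nkiras1*). These 3 partners had a WT mean of 7.08%, 1.19% and 1.25% of that of the ribosomal protein gene.

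At the other end, no gene rose. *Rpl4*, which lines the exit tunnel, had 42930, 44820 and 41628 in WT and 44318, 47069 and 50315 in *Rdh10* KO. *Rpl3*, which lies near the peptidyl transferase centre, had 15149, 16033 and 14841 in WT and 15552, 16352 and 17879 in *Rdh10* KO. For both the groups overlapped, with replicate 3 of *Rdh10* KO the highest library, at 0.13 ± 0.07 and 0.11 ± 0.07 (limma, adjusted p = 0.229 and 0.307). *Rpl28*, *Rpl17*, *Rpl9*, *Rpl36* and *Rplp0* lay between 0.05 and 0.06 with overlapping groups and adjusted p (limma) from 0.631 to 0.722. *Rpl6l*, with 43.0, 44.5 and 42.3 in WT and 48.0, 46.9 and 55.3 in *Rdh10* KO, had 0.21 ± 0.24 (limma, adjusted p = 0.621).

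The 5 genes with the highest mean value were *Rpl4*, *Rpl13a*, *Rps3*, *Rplp0* and *Rpl8*, and none of them passed the test. *Rps3*, which forms part of the mRNA entry site, had 38487, 39321 and 40073 in WT and 36364, 35297 and 36747 in *Rdh10* KO, without overlap (log2 fold change -0.12 ± 0.06, limma, adjusted p = 0.207). *Rpl13a* had 43724, 44986 and 43479 in WT and 39438, 39669 and 44831 in *Rdh10* KO. Replicate 3 of *Rdh10* KO lay within the WT range while the others lay below it (-0.10 ± 0.07, limma, adjusted p = 0.390). *Rpl8*, next to the peptidyl transferase centre, had -0.02 ± 0.06 (limma, adjusted p = 0.838).

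The genes were also counted by place in the ribosome, with few genes in each place. Over all genes 9.12% fell, over those with a mean above 1000 22.8% and over the family 16.9%, and no difference between places was tested. At the rim of the exit tunnel 2 of 6 genes fell (*Rpl26* and *Rpl23a*) and the median was -0.13. Around the peptidyl transferase centre 0 of 3 did (*Rpl3*, *Rpl8*, *Rpl10*), with a median of -0.02. In the head of the small subunit 2 of 14 fell (among them *Rps12*, median -0.12), and in its body and platform 1 of 17 (*Rps14*, median -0.10).

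The 5S particle and the stalk did not hold a gene that passed. *Rpl5* and *Rpl11* carry 5S ribosomal RNA into the large subunit and, when free, bind the p53 regulator MDM2. *Rpl5* had 8417, 9413 and 9146 in WT and 8463, 9209 and 9372 in *Rdh10* KO, with full overlap (0.00 ± 0.07, limma, adjusted p = 0.978). *Rpl11* had 12318, 13156 and 13359 in WT and 11882, 10928 and 13046 in *Rdh10* KO, where replicate 3 lay within the WT range (-0.12 ± 0.07, limma, adjusted p = 0.309). Of the stalk proteins, which recruit the elongation factors, *Rplp0*, *Rplp1* and *Rplp2* had log2 fold changes of 0.05, -0.12 and -0.02, with adjusted p (limma) of 0.674, 0.312 and 0.886.

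Some ribosomal proteins have paralogs outside the core set. Of 8 listed, 6 were tested and 3 fell, with a median of -0.46, where 9.12% of all genes and 22.8% of those with a mean above 1000 fell. These were *Rpl7l1*, *Rps27l* and *Rps4l*, the last of which is not annotated as protein-coding in the table and is not counted among the 83. *Rps4l* had 1569, 1404 and 1283 in WT and 999, 1000 and 1066 in *Rdh10* KO, without overlap (-0.47 ± 0.09, limma, adjusted p = 0.0018), and the call was lost without WT replicate 2. *Rpl22l1* and *Rpl36al* had -0.19 ± 0.08 and -0.18 ± 0.07 (limma, adjusted p = 0.132 and 0.0840). *Rpl39l*, near the floor with a mean of 1.07, was also tested and did not pass. Its -1.33 was the lowest value of the list and enters the median. Without the 4 paralogs among the 83, 12 of 79 genes fell. Of the 12 listed Diamond-Blackfan anemia genes 4 fell, among them *Rpl35a*, *Rpl26* and *Rpl15*, with a median of -0.15, where 9.12% of all genes and 22.8% of those with a mean above 1000 fell.

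Some ribosomal proteins go by other names. *Fau*, which encodes RPS30 fused to a ubiquitin-like protein, had 6612, 6609 and 6219 in WT and 6361, 6598 and 7632 in *Rdh10* KO (0.08 ± 0.07, limma, adjusted p = 0.530). *Gnb2l1*, which encodes RACK1, had 33684, 33488 and 32645 in WT and 33142, 33100.1 and 32488 in *Rdh10* KO (-0.02 ± 0.06, limma, adjusted p = 0.902). In both genes the groups overlapped and the test was not passed.

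Ribosomal protein mRNAs are short, and fold changes in these libraries moved with mRNA length. The median mRNA length of the family was 882 bases, against 3337 bases over all coding genes with a WT mean above 1000. Among other coding genes of that level, the median log2 fold change was -0.40 for mRNAs of up to 500 bases (11 genes), -0.32 from 500 to 1000 bases (200 genes) and -0.28 from 1000 to 1500 bases (346 genes), and it reached 0.21 above 6000 bases (757 genes). The ribosomal protein genes of the same lengths, also with a WT mean above 1000, had medians of -0.16 (11 genes), -0.12 (39 genes) and -0.02 (18 genes). In these 3 ranges the family lay below 0 and above the median of other short mRNAs. Levels above 1000 were not matched between the family and the other genes.

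The share of genes that fell shows the same order. From 500 to 1000 bases 64.0% of the other genes and 23.1% of the ribosomal protein genes fell, and from 1000 to 1500 bases 57.8% and 0% did. Across the 82 genes with a coding transcript, the fold change had a Spearman correlation of 0.408 with mRNA length and 0.425 with the number of residues. The correlation was 0.278 with the WT mean and 0.0574 with GC content, and the Pearson correlation with log2 mRNA length was 0.239. This is a description across genes that share the same 6 libraries and the same fit and are not independent replicates. Genes of up to 150 residues had a median of -0.12 with 10 of 40 fallen, those above 150 and up to 250 residues a median of -0.12 with 4 of 30 fallen, and those above 250 residues a median of -0.02 with 0 of 12 fallen, where 22.8% of all genes with a mean above 1000 fell.

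With a correction for GC content and length of 1 transcript per gene, chosen after seeing the data, the medians were -0.02 for the large and -0.05 for the small subunit, and 23 of the 33 small subunit genes lay below 0. In this fit 8 of the 83 genes fell, 6 of them among the 14. The share of the family was below that of all genes, of which 2717 of 22800 fell, and *Rpl3* rose (0.17, limma, adjusted p = 0.0461). Outside the 14, *Rps15a* and *Rpl18* fell, at -0.23 and -0.17. The transcripts used for them had 5179 and 2989 bases for 130 and 188 residues, so their correction rests on uncertain lengths. *Rpl34*, *Rpl7l1*, *Rps27l*, *Rpl27*, *Rpl35a* and *Rpl26* kept their call, at -0.40, -0.48, -0.32, -0.31, -0.24 and -0.23. The rest of the 14 lost it, at values from -0.18 (*Rpl30*) to -0.09 (*Rps12*), with *Rps14* at -0.12. Without the correction these 3 genes had -0.33, -0.20 and -0.21. The part of mRNA length in the fold changes of single genes was not tested.

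**Figure D4:**
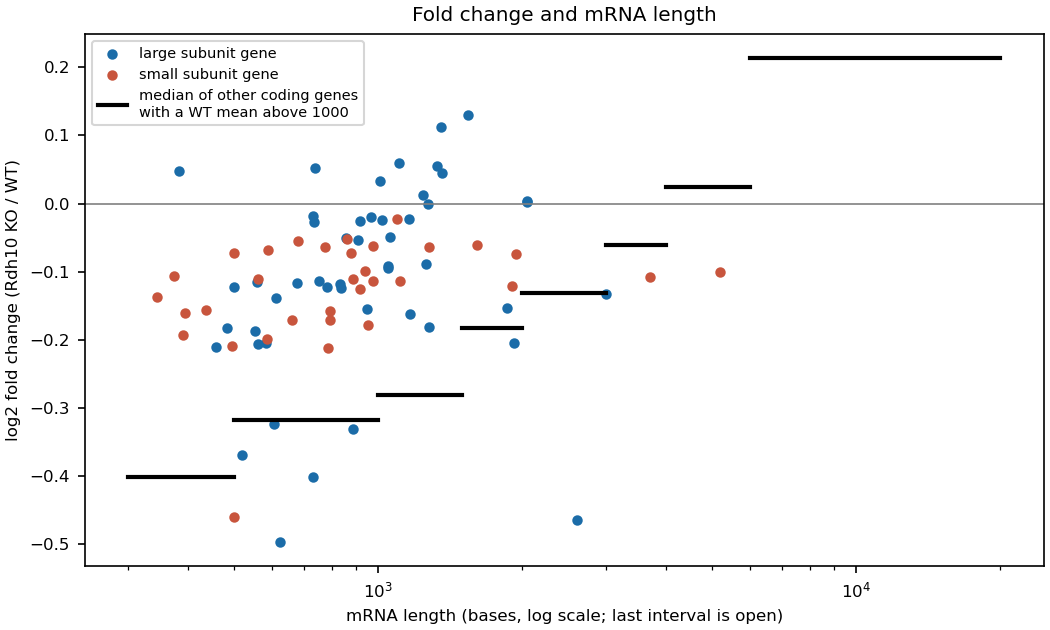
Log2 fold change of *Rdh10* KO over WT against mRNA length in bases (log axis) for 82 ribosomal protein genes, with horizontal lines at the median of other coding genes with a WT mean above 1000 in each length range. The lines rise from -0.40 to 0.21, and most ribosomal protein genes of up to 1500 bases lie above the line at their length.

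Processed copies of ribosomal protein genes, whose reads are hard to tell from those of the parent gene, held little signal. The 120 such copies named after large subunit genes had 0.725% and the 74 named after small subunit genes 0.662% of the parents' summed values. Of those tested, 0 of 99 and 0 of 63 fell, and 1 and 0 rose in limma. Over all genes 9.12% fell and 10.3% rose, and only 52 of the 162 copies had a mean above 10. At an unadjusted p under 0.05 in limma, 5 of the 162 fell and 4 rose, where 3421 and 3615 of all 22921 genes did. The adjusted counts of fallen copies were 0 in edgeR's quasi-likelihood test and DESeq2 and 1 in edgeR's likelihood ratio test. The copy that rose, named after its value was seen, was *Rpl34-ps1*, with 69.57, 20.03 and 83.68 in WT and 166.84, 145.08 and 100.01 in *Rdh10* KO (1.46 ± 0.41, limma, adjusted p = 0.0219). It is copied from the gene with the lowest fold change, its groups did not overlap, and its call was lost with any of the 6 libraries left out. In DESeq2 0 copies rose. Together the copies of *Rpl34* had 1.25% of the value of *Rpl34*. The largest share of a parent's value was that of the copies of *Rpl3*, at 15.4%, and *Rpl3-ps1* had 2366, 2330 and 2221 in WT and 2497, 2473 and 2775 in *Rdh10* KO. Like *Rpl3* it was highest in *Rdh10* KO replicate 3, but here the groups did not overlap (0.16 ± 0.07, limma, adjusted p = 0.142).

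The ribosome inside mitochondria has its own set of proteins, also encoded in the nucleus. Of 76 such genes 46 fell (60.5%, against 9.12% of all genes and 22.8% of those with a mean above 1000) and 0 rose, and the median was -0.34. They were 30 of 47 large subunit and 16 of 29 small subunit genes. In limma without the intensity trend, where 197 of all 22921 genes fell and 448 rose, 2 of the 76 fell. At an unadjusted p under 0.05, 58 fell and 0 rose in limma, and 0 rose in edgeR and DESeq2. Without WT replicate 1, 2 or 3, 15, 16 and 27 fell, and without *Rdh10* KO replicate 1, 2 or 3, 42, 38 and 32 fell. The median stayed between -0.35 and -0.30 in these fits, and the difference between the mitochondrial and the cytosolic set was not tested. *Mrps18c* had 1077, 1093 and 1014 in WT and 662, 696 and 612 in *Rdh10* KO (-0.69 ± 0.08, limma, adjusted p = 1.0e-04). *Mrpl20* and *Mrpl11* had -0.81 ± 0.12 and -0.51 ± 0.08 (limma, adjusted p = 4.0e-04 and 5.4e-04), and the call for *Mrpl20* was lost without WT replicate 1 or 2.

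Assembly factors process ribosomal RNA and join it to the proteins. Of the 55 tested, 26 fell (47.3%), 1 rose (*Nop14*, named after its value was seen) and the other 28 did not pass, with a median of -0.24, where 9.12% of all genes and 22.8% of those with a mean above 1000 fell. Without WT replicate 1, 2 or 3, 8, 4 and 12 fell, and without *Rdh10* KO replicate 1, 2 or 3, 28, 16 and 15 fell. *Nop14* kept its call only without *Rdh10* KO replicate 1, and without the intensity trend 0 of the 55 fell and 0 rose. *Nhp2*, a protein of the snoRNPs that modify ribosomal RNA, had 3692, 3806 and 3713 in WT and 2866, 2513 and 2631 in *Rdh10* KO (-0.49 ± 0.07, limma, adjusted p = 3.1e-04). *Mphosph10* and *Pno1*, which act on the precursor of the small subunit, had -0.53 ± 0.08 and -0.53 ± 0.08 (limma, adjusted p = 5.0e-04 and 5.8e-04). The abundant nucleolar proteins *Ncl* and *Npm1* had -0.01 and 0.00.

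Of the 15 genes of RNA polymerase I and its factors, which transcribe ribosomal RNA, 3 fell (20%, against 9.12% of all genes and 22.8% of those with a mean above 1000) and 0 rose, with a median of -0.21, while at an unadjusted p under 0.05 in limma 8 fell and 1 rose, and edgeR and DESeq2 gave 1 risen. *Polr1e* had 806, 872 and 795 in WT and 579, 476 and 467 in *Rdh10* KO (-0.71 ± 0.10, limma, adjusted p = 3.1e-04). *Ubtf*, which binds the ribosomal RNA gene promoter, had -0.40 ± 0.07, and *Cd3eap* had -0.35 ± 0.09 (limma, adjusted p = 8.5e-04 and 0.0186). The call for *Cd3eap* was kept only with *Rdh10* KO replicate 1 left out. Poly(A) selection means that ribosomal RNA itself was not measured.

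Some ribosomal protein genes host small nucleolar RNAs in their introns, 30 of the 83 here, and other RNAs serve mainly as such hosts. Of the 11 snoRNA host RNAs tested, 2 fell (*Snhg3* at -0.66 ± 0.12, *Snhg8* at -0.31 ± 0.10) and 2 rose (*Snhg6* at 0.83 ± 0.11, *Snhg17* at 0.36 ± 0.09), with limma adjusted p of 0.0013, 0.0436, 1.6e-04 and 0.0101. Of all genes 9.12% fell and 10.3% rose. *Snhg6* had 423, 454 and 494 in WT and 708, 820 and 913 in *Rdh10* KO, without overlap. The calls for *Snhg3*, without WT replicate 2, and *Snhg17*, without any of the WT replicates, were lost, and that for *Snhg8* was kept only without *Rdh10* KO replicate 1. *Gas5*, a host RNA with a TOP tract, had 0.05 ± 0.09 (limma, adjusted p = 0.789).

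The factors that work with the ribosome moved in both directions. Of 35 translation initiation factors 14 fell (40%, against 9.12% of all genes and 22.8% of those with a mean above 1000) and 5 rose (14.3%, against 10.3% and 19.0%), with a median of -0.12. In limma without the intensity trend 0 fell and 0 rose. Without WT replicate 1, 2 or 3, 3, 2 and 3 fell and 2, 2 and 3 rose, and without *Rdh10* KO replicate 1, 2 or 3, 9, 7 and 6 fell and 5, 3 and 3 rose. *Eif4b*, a helper of the helicase eIF4A, had 14084, 14261 and 13256 in WT and 19582, 21563 and 23561 in *Rdh10* KO (0.63 ± 0.07, limma, adjusted p = 7.4e-05). *Eif4a2*, a form of that helicase, rose by 0.50 ± 0.08, and *Eif3j1*, a loosely bound subunit of eIF3, fell by 0.86 ± 0.13 (limma, adjusted p = 4.9e-04 and 4.6e-04). The others that rose, named after their values were seen, were *Pabpc1*, which binds the poly(A) tail, and *Eif3a* and *Eif3c* of the core of eIF3, at 0.39, 0.24 and 0.21.

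Of the 6 elongation factors, *Eef2*, which moves the ribosome along the mRNA, rose. It had 63238, 61626 and 56402 in WT and 77182, 79004 and 91593 in *Rdh10* KO (0.45 ± 0.08, limma, adjusted p = 0.0015). *Eif5a* and *Eef1d* fell, at -0.31 ± 0.08 and -0.24 ± 0.07 (limma, adjusted p = 0.0173 and 0.0194). *Eef1a1*, *Eef1b2* and *Eef1g* had 0.13, -0.12 and 0.05 and did not pass. Thus 2 of the 6 fell and 1 rose, where 9.12% and 10.3% of all genes did. Of those with a mean above 1000, 22.8% fell and 19.0% rose. The call was lost for *Eef2* without any of the WT replicates, for *Eif5a* without those or *Rdh10* KO replicate 2, and for *Eef1d* in all but the fit without *Rdh10* KO replicate 1.

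Of 15 genes of mTORC1 and its regulators, which set the translation of TOP mRNAs, 5 rose (33.3%) and 2 fell (13.3%, *Akt1s1* and *Rps6kb1*), against 10.3% risen and 9.12% fallen of all genes and 19.0% and 22.8% of those with a mean above 1000. Without the intensity trend 2 rose and 0 fell. The median was 0.13, which was -0.07 and -0.05 with the corrections for GC content and exon or transcript length. Without WT replicate 1, 2 or 3, 4, 3 and 4 rose and 0 fell, and without *Rdh10* KO replicate 1, 2 or 3, 4, 5 and 4 rose and 1, 0 and 0 fell. *Ddit4*, an inhibitor of mTORC1 that is induced by stress and low oxygen, had 1200, 1249 and 1020 in WT and 5231, 12309 and 10299 in *Rdh10* KO (2.92 ± 0.22, limma, adjusted p = 2.1e-06). *Sesn2*, a leucine sensor that restrains mTORC1, had 517, 501 and 444 in WT and 1191, 1432 and 1374 in *Rdh10* KO (1.45 ± 0.10, limma, adjusted p = 8.0e-07). *Eif4ebp1*, which blocks eIF4E when mTORC1 is off, rose by 0.90 ± 0.12 (limma, adjusted p = 1.9e-04). In all 3 genes each *Rdh10* KO library was above each WT library. *Larp1* and *Deptor* also rose, by 0.51 and 0.89, and *Mtor* and *Rptor* had 0.09 and 0.03 and did not pass. Translation was not measured in these libraries.

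**Figure D5:**
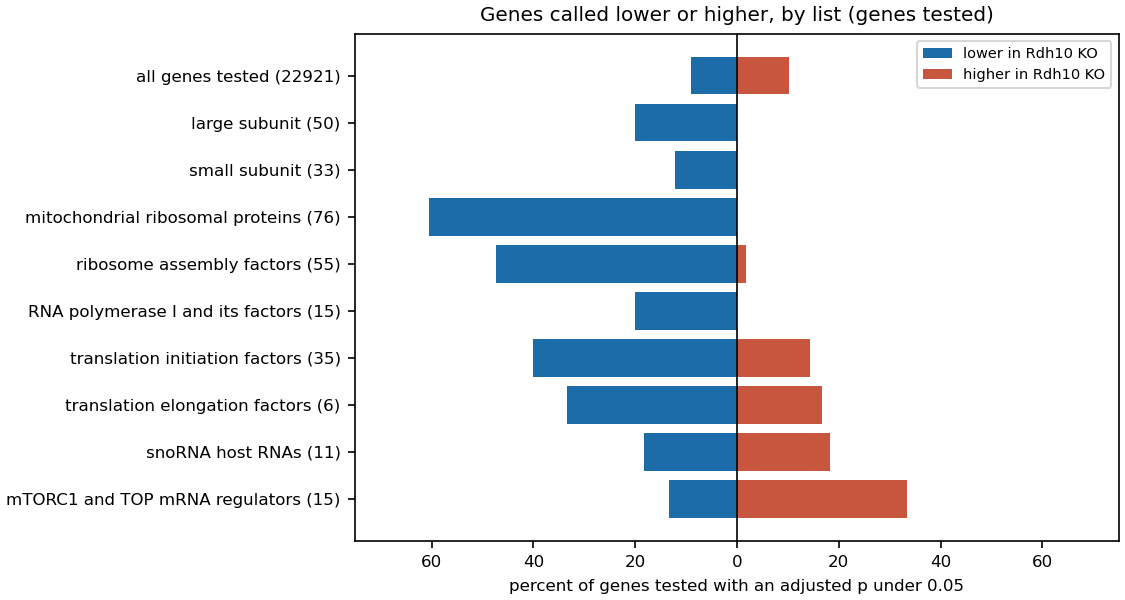
Percentage of genes in each list that fell (bars to the left) or rose (bars to the right) at an adjusted p under 0.05 in limma, with the number of genes tested in brackets. All genes stand at 9.12% fallen and 10.3% risen, the small subunit at 12.1% fallen with 0 risen, and the mitochondrial ribosomal proteins at 60.5% fallen.

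Markers of the cell types in the dissected tissue were measured beside the family. For comparison, 9.12% of all genes fell and 10.3% rose, and of those with a mean above 1000 22.8% fell and 19.0% rose. The 7 markers of proliferating cells, which tend to make many ribosomes, summed to 53760, 54895 and 52352 in WT and 52035, 55303 and 53549 in *Rdh10* KO, with *Top2a* the most abundant. The sums overlapped, while *Pcna* and *Cdk1* fell (-0.50 and -0.21) and *Mki67* rose (0.26). The 6 endothelial markers summed to 2946, 3190 and 2763 in WT and 4338, 4142 and 4180 in *Rdh10* KO, without overlap, and 4 of them rose (*Kdr*, *Pecam1*, *Cdh5* and *Tie1*), with *Kdr* the most abundant at 0.71 ± 0.09 (limma, adjusted p = 9.1e-05).

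The 8 mesenchyme markers summed to 11942, 12065 and 11848 in WT and 10931, 10577 and 10645 in *Rdh10* KO. The groups did not overlap, 2 of the 8 fell, among them *Alx4* (-0.95), and *Tfap2a* rose (0.64), and *Prrx1* was the most abundant. The 6 forebrain markers summed to 8192, 7661 and 7706 in WT and 7728, 10309 and 9826 in *Rdh10* KO, with *Sox2* the most abundant, and *Otx2* and *Dlx2* rose. The 6 surface ectoderm markers summed to 5571, 5582 and 5091 in WT and 5884, 5096 and 6064 in *Rdh10* KO, with *Krt18* the most abundant in WT, and *Cdh1* rose by 0.30. Among the optic markers *Lhx2* fell and *Six3* and *Rax* rose. These counts stand beside 9.12% fallen and 10.3% risen over all genes. No marker of these lists was at 0, and the part of tissue composition in the ribosomal protein values was not tested.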

How the data were processed

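The deposited table gives a signal for each gene and library, 3 WT and 3 *Rdh10* KO, which the authors describe as FPKM after alignment to mm10 with TopHat. The values show another unit, reads per gene over a single size factor for the library, computed by median of ratios: whole reads, within 0.05 of a read, were recovered for 100% of the values in each library. Whether counting used strand is not given in the sources used here. Of the lines, 1 names no gene and was left out. Genes with a mean above 0.5 (22921) were fitted as log2(value + 0.1) with limma 3.58.1 (R 4.3.3; lmFit, eBayes with trend), and p-values were adjusted over all of them (Benjamini-Hochberg, threshold 0.05). P-values rest on 3 pools of 3 embryos per group. Positions and mRNA lengths came from GENCODE M21 (GRCm38), matched for 26296 of 26437 genes, with 1 principal transcript per gene. Where several transcripts ranked alike, the longest was taken. *Rps15a*, *Rps20* and *Rpl18* had 5179, 3706 and 2989 bases for 130, 119 and 188 residues. Such lengths may be too long, and the levels per length and comparisons with mRNA length rest on them. Promoters came from RefSeq (GRCm38.p6).

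The members and gene lists were chosen with earlier results of these data known. Named were the 8 members at each end of the fold changes, the 5 most abundant, any past a log2 cut-off of 0.85 (0 here), *Rps14*, the 5S particle, stalk and paralog members, *Rdh10*, ribosomal proteins under other names, elongation factors, and in each other translation list the 3 lowest adjusted p-values. Other genes are named in places and were chosen after their values were seen. edgeR 4.0.16 and DESeq2 1.42.0 were run on the recovered reads as alternatives, besides other filters, pseudocounts of 1 and 0.01, scalings, corrections for GC content and length, a replicate block and leaving out each library. Over all genes limma called 2091 lower and 2360 higher, edgeR's quasi-likelihood test 2190 and 2608, its likelihood ratio test 2240 and 2738, and DESeq2 2242 and 2461. Python 3.11.15 with pandas 2.3.3, numpy 2.4.6 and matplotlib 3.10.9 was used for tables and plots. The tests were checked on simulated data. The planted changes were larger than any seen in this family, so the check does not cover changes of the size found here.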

Additional observations from a re-analysis of the deposited data

How the results depend on the processing

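The median log2 fold change of large subunit genes and the median log2 fold change of small subunit genes stayed below 0 in every fit run. They were -0.14 (large) and -0.15 (small) with median scaling, -0.0519 (large) with quantile normalization, -0.0444 (large) with a correction for GC content and exon length, with or without a replicate block, and -0.0210 (large) and -0.0483 (small) with the correction for GC content and length of 1 transcript per gene, which was added after seeing the data. Leaving out each library in turn gave -0.13 to -0.07 (large) and -0.14 to -0.09 (small).

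The count of 14 genes that fell was less stable. It was 23 with median scaling, 9 with quantile normalization, 7 with edgeR's likelihood ratio test and 8 with the added correction, in which 1 rose. Over all genes 2557, 2278 and 2240 of 22921 and 2717 of 22800 fell in these fits, so that the family's share was above that of all genes with median scaling, near it with quantile normalization and below it in the others. It was 1 (*Rpl34*) in limma without the intensity trend, where 197 of all 22921 genes fell, 0 with the log2 cut-off of 0.85, and 3 to 11 with a library left out, where fewer samples were fitted. In the other fits on all 6 libraries and without a block it was 11 to 19, with 14 in edgeR's quasi-likelihood test and 19 in DESeq2, and 0 rose. Leaving the cut-off of 0.85 aside, *Rpl34* kept its call in every fit, and *Rpl7l1* and *Rpl27* in all but the fit without the trend. Without the trend 0 genes of the RNA polymerase I, elongation factor and snoRNA host lists fell or rose either. The cause of these moves was not tested.

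Replicate numbers showed no sign of pairing the samples. Correlations of same-numbered deviations from group means were -0.03, -0.03 and -0.07 over 15272 genes. No *Rdh10* KO library correlated best with the WT library of its number. Centring on group means constrains these correlations, so they cannot settle whether the numbers pair the samples. With a replicate block 7 genes fell, and with the block and the correction for GC content and exon length 6 fell, where 1387 of 22921 and 2387 of 22800 of all genes did. Depth was 16392777 to 27101025 reads on genes per library.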
